A study of Mus musculus with 4 samples.

Results

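The genes described here encode the metalloproteinases that cut the extracellular matrix and shed proteins from the cell surface, together with their tissue inhibitors. They are the ADAM, ADAMTS, MMP and TIMP genes, chosen by symbol, that is a family name followed by a number and at most 1 letter. Of 17097 genes named on the arrays, 61 matched: 26 ADAM, 14 ADAMTS, 18 MMP and 3 TIMP genes. A gene with several probe sets was represented by its brightest probe set, judged by the mean of the 4 arrays. A floor, the 40th percentile of all gene values on all arrays (3.19 on the log2 scale), was taken as the limit of signal. Above it on at least 1 array were 32 of the 61 members, made up of 14 ADAM, 8 ADAMTS, 8 MMP and 2 TIMP genes, against 10955 of the 17097 genes. Of these 32 members, 24 were above the floor on all 4 arrays, 2 on 3 arrays, 5 on 2 arrays and 1 on a single array.

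The study compared mouse embryonic stem cells labelled Snai1 knockout with control cells labelled F/F, both differentiated as embryoid bodies, which are aggregates of stem cells grown first as hanging drops and then in suspension. The embryoid bodies were dissociated and sorted by antibody staining for Flk1, the VEGF receptor encoded by Kdr, which marks mesoderm with hemato-endothelial potential. The groups were knockout Flk1+, control Flk1+, knockout Flk1- and control Flk1- cells, with 1 array each. All are labelled day 4, except that the source name of the knockout Flk1- sample gives day 5. The allele behind F/F, how the knockout line was made and whether it is 1 clone are not given in the sources used here. No group has replicates, so no test was made, no difference below has a replicate check, and the number of arrays limits the precision. In sorted populations, fewer cells of a type and less RNA per cell cannot be told apart.

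Pluripotency markers, 9 of them measured, had a summed linear level of 363 in knockout Flk1+ and 119 in control Flk1+ cells, and it was 1621 in knockout Flk1- and 947 in control Flk1- cells. The 7 primitive erythroid markers summed to 43.2, 132, 43.3 and 2355 in the same order. The populations thus differed in cell makeup markers between the genotypes as well as by the sort, and the part of this in the values of the members was not tested. Kdr was at 9.03 in knockout Flk1+ and 8.92 in control Flk1+ cells, against 3.88 in knockout Flk1- and 4.55 in control Flk1- cells, as the sort labels say. Snai1 was below the floor on all 4 arrays (1.88 to 2.56), so its level does not check the genotype labels. As a gauge of spread, 79 olfactory, vomeronasal and trace amine receptor genes, silent in most tissues, had an SD of 0.13 to 0.17 in the 4 comparisons. Of the 79, 8 were above the floor, so this gauge describes mainly low values. A pair of probe sets for the same gene was a wider gauge, since the gap between their differences had a median of 0.16 to 0.24 and a 95th percentile of 0.58 to 0.81.

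ADAMs are membrane-anchored proteins with a metalloproteinase and a disintegrin domain, and the active members release growth factors, Notch ligands and adhesion proteins from the cell surface. ADAMTS proteinases are secreted and carry thrombospondin motifs, and several cut versican and related proteoglycans. MMPs are zinc endopeptidases that are secreted or held at the membrane, and TIMPs block their active site. In the gastrulating embryo such enzymes act on the basement membrane and matrix that mesoderm cells cross, while Snai1 is a transcriptional repressor known for switching off epithelial genes in the same transition. These sentences are background and not results of these arrays.

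The members varied over the 4 arrays about as much as all genes did. The distance from the lowest to the highest array had a median of 0.40 over the 32 members, against 0.39 over 10955 genes. It was under 0.5 for 21 members (65.6%, against 66.5% of all genes above the floor) and at least 1 for 3 members (9.38%, against 8.05%). Those 3 were Adam12 at 5.05, Adamts1 at 1.69 and Mmp17 at 1.22, and Mmp14 was just short of it at 0.999. The distances of Adam12 and Mmp17 run to values below the floor. The highest of the 4 values lay in knockout Flk1+ cells for 11 members, in control Flk1+ cells for 11, in knockout Flk1- cells for 5 and in control Flk1- cells for 5. Over all genes the corresponding shares were 20.6%, 25.9%, 36.9% and 16.6%, against 34.4%, 34.4%, 15.6% and 15.6% of the members.

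**Figure D1:**
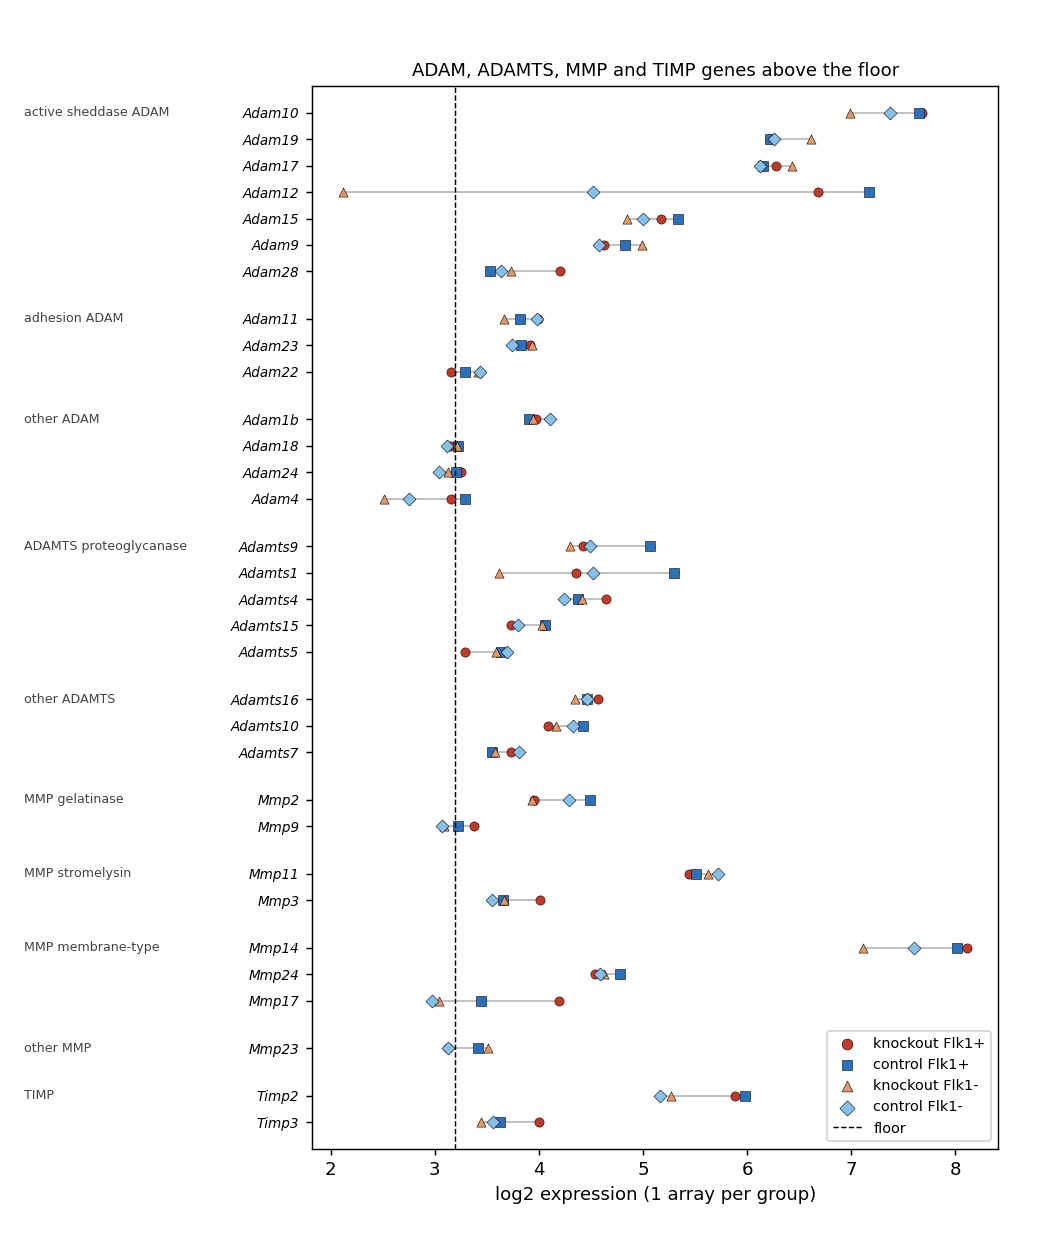
Log2 expression (x axis) of the 32 members above the floor, grouped by role, with 1 symbol for each array and a dashed line at the floor of 3.19. Adam12 spans 5.05 from its lowest to its highest array, Adamts1 and Mmp17 span 1.69 and 1.22, and the other symbols lie close together in most rows.

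Counted over all members, few differences reached 2-fold. In Flk1+ cells 0 of 32 members were 2-fold or more apart between knockout and control, against 1.85% of all genes (0.873% higher and 0.976% lower), and 4 were 1.5-fold or more apart (Mmp17 and Adam28 higher, Adamts1 and Adamts9 lower), against 7.68% (3.26% higher and 4.42% lower). The median difference was -0.04 for the members and -0.05 for all 10655 genes tested. In Flk1- cells 1 of 28 members was 2-fold apart, Adam12, which was lower in the knockout, against 1.34% of all genes (0.949% lower), and Adam12 and Adamts1 were 1.5-fold or more lower, against 2.53% of all genes. The median was -0.10 for the members, with 16 lower and 12 higher, and 0.04 for all 10533 genes. Without the floor it was 0.02 over all 61 members, with 34 higher and 27 lower, and 0.02 over all genes, so the sign of the median depends on the floor. In Flk1+ cells it was 0.04 over all 61 members without the floor, also opposite in sign.

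By the sort, 2 of 31 members were 2-fold or more higher in knockout Flk1+ than in knockout Flk1- cells, against 1.62% of all genes higher and 3.79% in either direction, and 1 of 32 in control cells, against 1.2% higher and 2.7% in either direction. They were Adam12 and Mmp17 in knockout cells and Adam12 in control cells. No member was 2-fold lower in either genotype, where 2.17% and 1.51% of all genes were. At the 1.5-fold rule 6 members in knockout cells (Adam12, Mmp17, Mmp14, Adamts1, Adam10 and Timp2) and 3 in control cells (Adam12, Timp2 and Adamts1) were higher in Flk1+ cells, against 4.35% and 3.48% of all genes. In the same comparisons 0 members were 1.5-fold lower, against 10.6% and 4.76% of all genes, and 15% and 8.25% of all genes were apart in either direction. The median sort difference was 0.13 in knockout cells, with 19 members higher and 12 lower, and 0.14 in control cells, with 24 higher and 8 lower. Over all genes it was -0.08 and -0.01. The comparisons by genotype and by sort share arrays, so their values are not independent of each other.

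**Figure D2:**
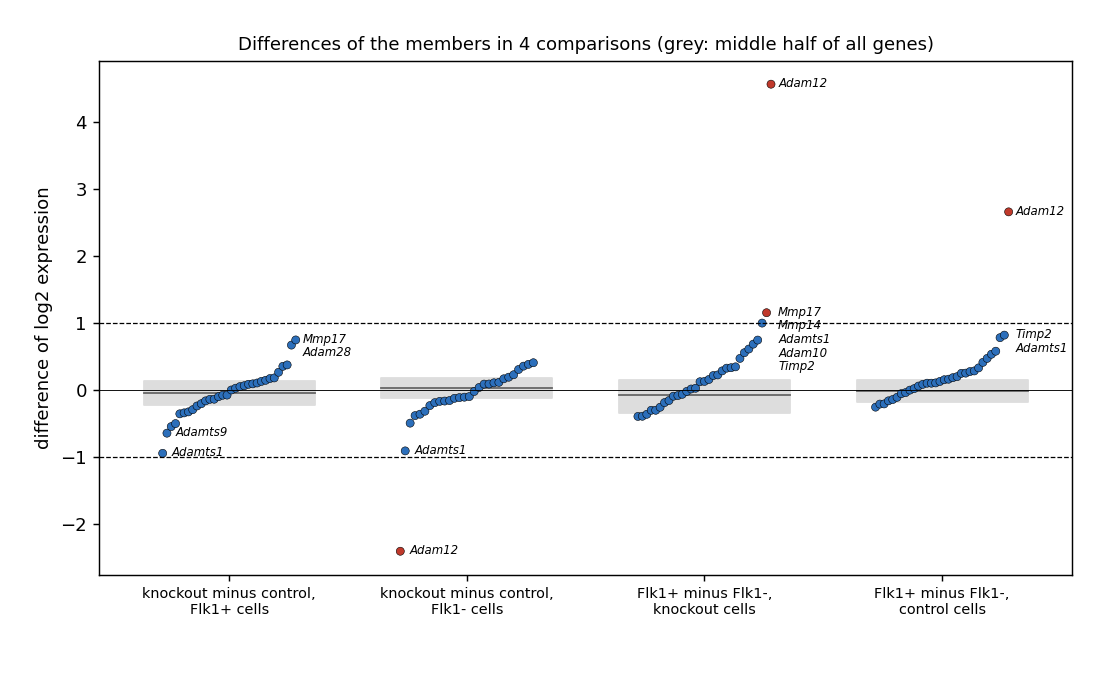
Difference of log2 expression (y axis) for each member above the floor on at least 1 array of the comparison, with 4 comparisons along the x axis. Dashed lines mark a 2-fold difference, red points lie past it, and the grey band and line are the interquartile range and median of all genes tested. Adam12 lies past the dashed lines in 3 comparisons, at -2.40, 4.56 and 2.66, and Mmp17 in 1, at 1.15. Of these the -2.40, 4.56 and 1.15 use a knockout Flk1- value below the floor, and are -1.33, 3.49 and 1.002 with it raised to the floor.

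Adam12 was the member furthest apart. Adam12, also known as meltrin alpha, is an active sheddase expressed in mesenchyme and in muscle precursors. It was at 6.68 in knockout Flk1+ and 7.18 in control Flk1+ cells, against 2.12 in knockout Flk1- and 4.52 in control Flk1- cells. Both Flk1+ values were thus above both Flk1- values, and the knockout Flk1- value was the only one below the floor. In control cells Adam12 was 6.30-fold higher in the Flk1+ fraction. This difference of 2.66 ranked at position 6 among the higher genes, over 9865 genes above the floor in both fractions. In knockout cells it was at least 11.2-fold higher in Flk1+ than in Flk1- cells, and within Flk1- cells it was at least 2.51-fold lower in the knockout. Within Flk1+ cells the knockout minus control difference was -0.50, which was less than the 95th percentile of the probe set gap.

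The second Adam12 probe set gave the same order of the 4 arrays. It was at 5.66 in knockout Flk1+ and 6.15 in control Flk1+ cells, against 2.62 in knockout Flk1- and 3.74 in control Flk1- cells. Its knockout minus control difference was -0.50 in Flk1+ cells, like that of the first, and -1.12 in Flk1- cells, against -2.40 for the first. Subtracting the Flk1- genotype difference from the Flk1+ one gave a difference of differences of 1.90 with the first probe set and 0.62 with the second. Both probe sets were below the floor in knockout Flk1- cells. With those values raised to the floor, the Flk1- difference was -1.33 for the first and -0.55 for the second, which is under the 2-fold rule, and the difference of differences was 0.83 and 0.05. As deposited, both probe sets passed the 2-fold rule in Flk1- cells, but with raised values only the first did. Raised values give lower bounds in size, so the second probe set cannot show whether a difference of differences is present.

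Most markers of the sorted cell type were apart by the sort, as Adam12 was. All 12 hemato-endothelial markers were above the floor in both Flk1+ populations, against 7 in knockout Flk1- and 6 in control Flk1- cells. Their summed level on the linear scale was 1081 in knockout Flk1+ and 1150 in control Flk1+ cells, and 116 in knockout Flk1- and 153 in control Flk1- cells. Kdr, the gene of the sort itself, is 1 of the 12. It was the highest of them in both Flk1+ populations, at 9.03 and 8.92, so the sort itself sets part of these sums and counts. In both genotypes 10 of the 12 were at least 2-fold higher in the Flk1+ fraction, while in knockout cells Pecam1, an endothelial adhesion protein, and Runx1, a blood transcription factor, were at -0.65 and -0.03. Between the Flk1- populations the 7 tested markers had a median knockout minus control difference of -0.09, with 2 higher, 5 lower and 1 of them at least 2-fold lower. That one, Lmo2, a cofactor of blood and endothelial transcription, was at 3.30 in knockout cells and 5.26 in control cells. Cdh5 and Pecam1 were the 2 that were higher in knockout Flk1- cells, by 0.59 and 0.24. The control Cdh5 value of 2.72 was below the floor, so its difference was at least 1.09-fold. The other Cdh5 probe set above the floor was at -0.08. Of the 9 measured fibroblast markers, 2 were above the floor in both knockout populations and 4 in both control populations. Their summed level was 78.7 in knockout Flk1+ and 208 in control Flk1+ cells, and 64.6 in knockout Flk1- and 97.7 in control Flk1- cells. Col1a1 was at 3.99 in knockout Flk1+ and 6.53 in control Flk1+ cells. Col3a1 was at 3.04 and 5.10 in the same cells and Postn at 3.16 and 4.87, with both knockout values below the floor. Pdgfra, also above the floor, had a difference of -0.30 there. The fibroblast markers Dcn, Lum, Thy1, Col1a2 and S100a4 were below the floor on all 4 arrays. The part of these cell types in the Adam12 values was not tested.

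The other active sheddases differed less. Adam10, which releases Notch and many cadherins from the membrane, was at 7.68 in knockout Flk1+ and 7.65 in control Flk1+ cells, against 6.99 in knockout Flk1- and 7.37 in control Flk1- cells. It was level between the Flk1+ arrays and lowest in knockout Flk1- cells, and its sort difference was 0.69 in knockout and 0.28 in control cells. Its 3 probe sets above the floor gave knockout sort differences from 0.47 to 0.72. Adam17, the sheddase of TNF and of EGF receptor ligands, was at 6.28 and 6.15 in knockout and control Flk1+ cells, against 6.44 and 6.13 in knockout and control Flk1- cells. Adam19, a sheddase with a role in heart development in mouse, was at 6.22 in both Flk1+ populations, against 6.61 in knockout Flk1- and 6.25 in control Flk1- cells. With these probe sets the knockout Flk1- array was the highest for both genes, by 0.31 and 0.36 over the control. The 3 Adam17 probe sets had knockout minus control differences from 0.04 to 0.31 in Flk1- cells, and 1 of them was highest in knockout Flk1+ cells. The knockout sort difference of Adam17 was -0.15 as deposited, 0.01 after quantile normalization and 0.02 after cyclic loess.

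Adam28 was at 4.20 in knockout Flk1+ and 3.53 in control Flk1+ cells, against 3.73 and 3.64 in knockout and control Flk1- cells. Its difference of 0.67 in Flk1+ cells rests on 1 of its 2 probe sets, since the other was below the floor. Adam15, whose disintegrin domain binds integrins, had a knockout minus control difference of -0.16 in both fractions. It was represented by a probe set ending in _x_at, a type that can bind related sequences, and its 3 probe sets above the floor disagreed in sign, with genotype differences in Flk1+ cells from -0.16 to 0.20 and control sort differences from -0.30 to 0.79. Adam9, a widely expressed sheddase, was at 4.63 and 4.83 in knockout and control Flk1+ cells, against 4.99 and 4.58 in knockout and control Flk1- cells. The remaining sheddases, Adam8 and Adam33, were below the floor on all 4 arrays.

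The adhesion ADAMs bind partner proteins without a working catalytic site. Adam22 and Adam23, receptors for LGI proteins at the nerve cell surface, and Adam11 were above the floor on 3, 4 and 4 arrays. Their knockout minus control differences ran from -0.13 to 0.17 in Flk1+ and from -0.31 to 0.19 in Flk1- cells. Of the 14 other ADAMs, most of which are known from testis and sperm, 4 were above the floor, namely Adam1b, Adam4, Adam18 and Adam24. Of those, 3 were barely so: Adam18, Adam24 and Adam4 peaked at 3.22, 3.25 and 3.29. The members just under the floor were Adamts3, a procollagen N-proteinase, with a highest value of 3.18 in control Flk1+ cells, and Timp1, with a highest value of 3.17 in knockout Flk1- cells.

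Among the secreted ADAMTS proteinases, Adamts1 was lower in the knockout in both fractions. Adamts1 cuts versican and aggrecan and has a role in heart development and ovulation in mouse. It was at 4.36 in knockout Flk1+ and 5.30 in control Flk1+ cells, against 3.61 in knockout Flk1- and 4.52 in control Flk1- cells. Within each fraction the knockout array was thus the lower one, and within each genotype the Flk1+ array was the higher one. The knockout minus control differences were -0.94 and -0.90, which ranked at positions 102 of 9939 and 96 of 9901 among the lower genes. The sort differences were 0.75 in knockout and 0.78 in control cells. All 4 sizes were below the 2-fold rule, and all were past the SD of the receptor genes. Both genotype differences and the control sort difference were also past the 95th percentile of the probe set gap. The knockout sort difference of 0.75 was under it (0.81). Adamts1 has 1 probe set, so no second one could be set beside it.

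Adamts9, which also cuts versican, was at 4.43 in knockout Flk1+ and 5.07 in control Flk1+ cells, against 4.30 in knockout Flk1- and 4.49 in control Flk1- cells. The control Flk1+ array stood above the other 3, which lay within 0.19 of each other. All 3 of its probe sets were lower in the knockout in both fractions, from -0.64 to -0.30 in Flk1+ and from -0.59 to -0.11 in Flk1- cells. They disagreed on the sort, from -0.18 to 0.58 in control cells. Adamts5, the neighbour of Adamts1 on chromosome 16, was at 3.29 in knockout Flk1+ and 3.64 in control Flk1+ cells, against 3.59 in knockout Flk1- and 3.69 in control Flk1- cells, close to the floor. Over the 5 proteoglycanases above the floor, of 7, the median knockout minus control difference was -0.35 in Flk1+ cells, with 4 lower and 1 higher. It was -0.10 in Flk1- cells, with 3 lower and 2 higher. Adamts4, an aggrecanase, was higher in the knockout in both, by 0.27 and 0.17. Adamts8 and Adamts20 were below the floor.

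The substrate and partners of these enzymes were set beside them. Vcan, which encodes versican, was at 7.47 in knockout Flk1+ and 8.44 in control Flk1+ cells, against 6.15 in knockout Flk1- and 8.04 in control Flk1- cells. Versican binds hyaluronan in a loose matrix of embryonic mesenchyme and heart. Within each fraction it was lower in the knockout, with differences of -0.97 in Flk1+ and -1.89 in Flk1- cells, and its 3 probe sets above the floor ran from -0.97 to -0.49 and from -2.14 to -1.89. Has2, the main hyaluronan synthase of the early embryo, had differences of -0.67 and -1.04. Its 2 probe sets disagreed in Flk1+ cells (-0.67 and 0.05) but not in Flk1- cells (-1.04 and -1.16). Hapln1, which links hyaluronan to versican, was at 6.87 in knockout Flk1+ and 7.17 in control Flk1+ cells, against 2.68 in knockout Flk1- and 3.57 in control Flk1- cells. Like Adam12, it separated by the sort, and its lowest value, in knockout Flk1- cells, was below the floor. Of the hyaluronan and hyalectan genes, 8 of the 10 measured were above the floor. The median knockout minus control difference was -0.27 in Flk1+ cells, with 0 of 7 at least 2-fold apart. It was -0.12 in Flk1- cells, with 2 of 7 at least 2-fold lower. Over all genes the medians were -0.05 and 0.04, with 1.85% apart in Flk1+ and 0.949% lower in Flk1- cells. By the sort, 2 of 7 were at least 2-fold higher in knockout Flk1+ cells and 1 of 8 in control Flk1+ cells. The shares of all genes higher were 1.62% and 1.2%.

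**Figure D3:**
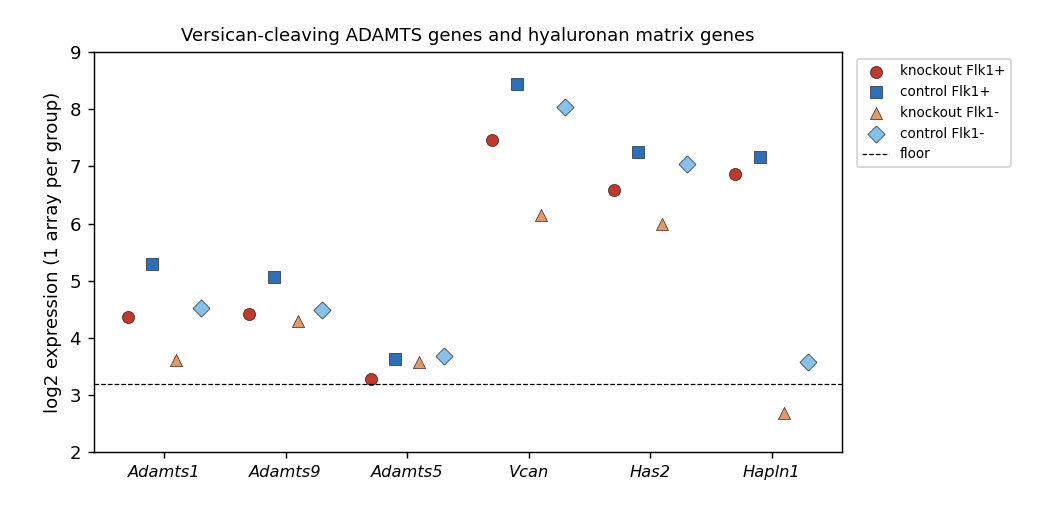
Log2 expression (y axis) of 3 ADAMTS genes that cut versican and of the hyaluronan matrix genes Vcan, Has2 and Hapln1, with 1 symbol for each array and a dashed line at the floor. Adamts1 and Vcan are lower in the knockout within each fraction, at 4.36 against 5.30 and 7.47 against 8.44 in Flk1+ cells, and Hapln1 separates by the sort. Levels are comparable along a gene and not between genes.

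Cardiac and lateral plate markers moved with these genes between the genotypes. Their summed linear level was 639 in knockout Flk1+ and 1620 in control Flk1+ cells, and 472 in knockout Flk1- and 1363 in control Flk1- cells, and 8 of 9 and 10 of 10 tested markers were lower in the knockout. Among them Hand1 had differences of -2.49 in Flk1+ and -3.21 in Flk1- cells. The part of these cells in the Adamts1, Vcan and Has2 values was not tested. The 3 remaining ADAMTS members above the floor, Adamts7, Adamts10 and Adamts16, had genotype differences from -0.34 to 0.18 in Flk1+ and from -0.23 to -0.11 in Flk1- cells. Adamts15 was at -0.32 and 0.23.

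Of the membrane-type MMPs, Mmp14 and Mmp17 were higher in Flk1+ cells in both genotypes, for Mmp14 by more in the knockout pair of arrays. Both sort differences of Mmp17 are lower bounds and cannot be ranked. Mmp14, or MT1-MMP, is a collagenase of the cell surface that activates the secreted gelatinase Mmp2. It was at 8.11 in knockout Flk1+ and 8.02 in control Flk1+ cells, against 7.11 in knockout Flk1- and 7.61 in control Flk1- cells. The Flk1+ arrays were close together above both Flk1- arrays, with the knockout Flk1- array lowest. The sort difference was 0.999 in knockout cells, just under the 2-fold rule, and 0.41 in control cells. It passed the rule after quantile normalization, cyclic loess or median centring of the arrays. The second probe set had sort differences of 0.68 and 0.38, and in Flk1- cells it did not share the knockout minus control difference of the first (-0.0038 against -0.49).

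Mmp17, a membrane-type MMP with a GPI anchor, was at 4.19 in knockout Flk1+ and 3.45 in control Flk1+ cells, against 3.04 in knockout Flk1- and 2.97 in control Flk1- cells. Both Flk1- values were below the floor. In knockout cells it was at least 2.003-fold higher in the Flk1+ fraction, and in control cells at least 1.19-fold. Within Flk1+ cells it was 0.75 higher in the knockout, the largest positive genotype difference of any member there. It has 1 probe set. Mmp24, another membrane-type MMP, was at 4.54 and 4.78 in knockout and control Flk1+ cells, against 4.63 and 4.59 in knockout and control Flk1- cells, so the 4 arrays lay within 0.24. Mmp16 was below the floor.

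The secreted MMPs were few. The gelatinases cut denatured collagen and basement membrane collagen. Mmp2 was at 3.95 in knockout Flk1+ and 4.49 in control Flk1+ cells, against 3.93 in knockout Flk1- and 4.29 in control Flk1- cells, so both knockout arrays were below both control arrays, by 0.54 and 0.36. Mmp9 was at 3.37 and 3.23 in knockout and control Flk1+ cells, against 3.09 and 3.07 in knockout and control Flk1- cells, which is around the floor. Mmp11, a stromelysin of stromal cells, was at 5.44 and 5.51 in knockout and control Flk1+ cells, against 5.62 and 5.72 in knockout and control Flk1- cells, with sort differences of -0.19 in knockout and -0.21 in control cells. Mmp3 was 0.35 higher in the knockout in Flk1+ cells and 0.12 higher in Flk1- cells. Mmp23 was at 3.13 and 3.42 in knockout and control Flk1+ cells, against 3.51 and 3.13 in knockout and control Flk1- cells, so it was below the floor on 2 arrays. The 4 collagenases Mmp1a, Mmp1b, Mmp8 and Mmp13 were below the floor on all 4 arrays, as were Mmp7, Mmp10, Mmp12, Mmp19 and Mmp20. In the GRCm38.p6 annotation 10 MMP genes lie next to each other on chromosome 9 among protein-coding genes, a run from Mmp13 to Mmp7. Of the 9 that were named on the array, Mmp3 was above the floor and the other 8 were not. Elsewhere Adam9 ends a run of 5 adjacent ADAM genes on chromosome 8, of which 4 were named and Adam9 and Adam18 were above the floor.

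Of the inhibitors, 2 were above the floor. Timp2 inhibits MMPs and also joins Mmp14 in the complex that activates Mmp2. It was at 5.88 in knockout Flk1+ and 5.98 in control Flk1+ cells, against 5.27 in knockout Flk1- and 5.16 in control Flk1- cells. Both Flk1+ arrays were above both Flk1- arrays, by 0.61 in knockout and 0.82 in control cells. All 4 of its probe sets above the floor were higher in Flk1+ than in Flk1- control cells, from 0.45 to 0.82, and in knockout cells they ran from -0.06 to 0.76. The probe set used ends in _s_at, a type shared by several transcripts. Without it, Timp2 had a knockout minus control difference of -0.43 in Flk1- cells, against 0.11 with it, and of -0.28 against -0.10 in Flk1+ cells. Over all 4 probe sets above the floor, this difference ran from -0.68 to -0.10 in Flk1+ and from -0.43 to 0.11 in Flk1- cells. Timp3, which binds to the matrix and also inhibits Adam17 and ADAMTS enzymes, was at 4.00 in knockout Flk1+ and 3.62 in control Flk1+ cells, against 3.44 in knockout Flk1- and 3.56 in control Flk1- cells. The knockout Flk1+ array was the highest and the other 3 lay close together. Timp1 was below the floor on all 4 arrays, at 2.84 and 2.65 in knockout and control Flk1+ cells, against 3.17 and 2.73 in knockout and control Flk1- cells.

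**Figure D4:**
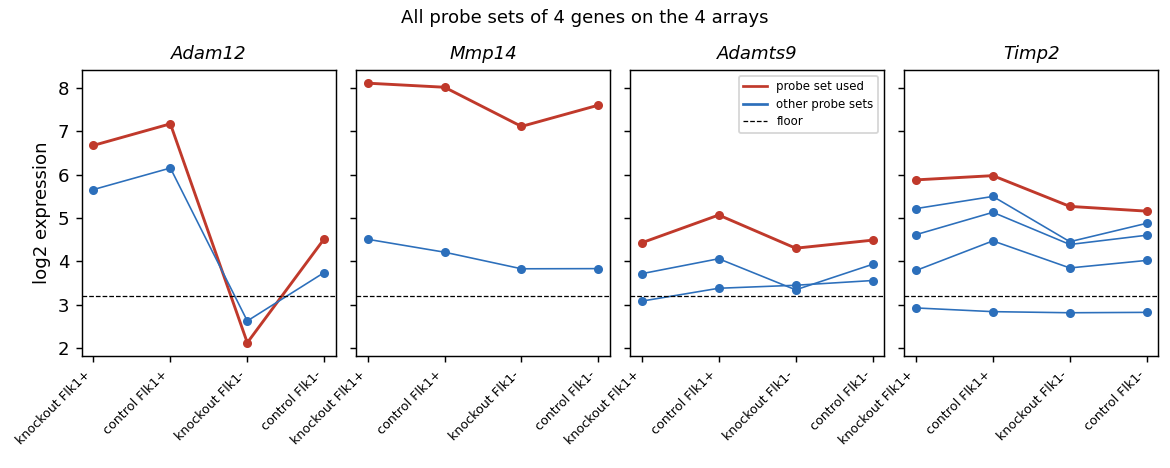
Log2 expression (y axis) of every probe set of Adam12, Mmp14, Adamts9 and Timp2 on the 4 arrays (x axis), with the probe set used in red, the others in blue and a dashed line at the floor; lines only join the values of a probe set. Both Adam12 probe sets have their lowest value in knockout Flk1- cells, at 2.12 and 2.62, and the Adamts9 and Timp2 probe sets differ in shape.

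Snai1 is known to bind the E-box CAGGTG. Among the members with an entry in the RefSeq table, 4 start regions are shown: those of Timp2 and Timp3 as inhibitors that hold the site, and those of Adamts1 and Mmp14 as members 1.5-fold or more apart in a comparison. This choice was made after the values were seen, and sequences of Adam12, Mmp17 and the other members are not shown. Each sequence is 300 bases, from 250 before to 50 after the gene's start, 5′ to 3′ on the gene's strand, taken from RefSeq (GRCm38.p6), with the letters CAGGTG or CACCTG, which is the same site on the other strand, in capitals. The Timp2 region is chr11:118355362-118355661 on the minus strand, that of Timp3 is chr10:86300162-86300461 on the plus strand, that of Adamts1 is chr16:85803064-85803363 on the minus strand and that of Mmp14 is chr14:54431348-54431647 on the plus strand.
Timp2: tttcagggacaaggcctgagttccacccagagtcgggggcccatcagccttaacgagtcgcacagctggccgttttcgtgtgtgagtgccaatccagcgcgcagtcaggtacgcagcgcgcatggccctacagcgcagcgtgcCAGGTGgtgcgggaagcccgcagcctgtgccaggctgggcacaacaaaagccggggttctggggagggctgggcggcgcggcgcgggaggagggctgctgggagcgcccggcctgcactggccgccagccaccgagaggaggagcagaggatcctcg
Timp3: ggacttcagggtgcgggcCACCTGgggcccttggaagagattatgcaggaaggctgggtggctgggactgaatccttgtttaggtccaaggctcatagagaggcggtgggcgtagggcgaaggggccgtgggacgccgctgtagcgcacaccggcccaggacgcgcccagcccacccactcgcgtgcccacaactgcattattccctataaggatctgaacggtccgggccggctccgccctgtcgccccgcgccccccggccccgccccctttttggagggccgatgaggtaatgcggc
Adamts1: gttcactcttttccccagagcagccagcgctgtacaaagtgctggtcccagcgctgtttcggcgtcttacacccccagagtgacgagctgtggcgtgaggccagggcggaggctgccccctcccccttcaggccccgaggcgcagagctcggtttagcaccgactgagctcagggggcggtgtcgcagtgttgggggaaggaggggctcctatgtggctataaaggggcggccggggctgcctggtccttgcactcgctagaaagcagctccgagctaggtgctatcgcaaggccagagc
Mmp14: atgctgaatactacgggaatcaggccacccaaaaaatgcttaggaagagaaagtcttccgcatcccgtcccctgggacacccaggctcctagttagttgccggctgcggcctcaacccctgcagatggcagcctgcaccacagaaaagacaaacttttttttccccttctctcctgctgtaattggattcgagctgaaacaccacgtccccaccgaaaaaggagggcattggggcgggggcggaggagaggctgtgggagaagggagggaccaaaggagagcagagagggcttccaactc

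Timp2 and Timp3 each held the site once, starting 107 and 232 bases before the gene's start, and the Adamts1 and Mmp14 windows did not hold these letters. The RefSeq table gave 19 start regions for 16 of the 32 members above the floor, and 5 of the 19 (26.3%) held the site, against 6640 of 32851 start regions of all genes (20.2%). The other 3 regions were 2 of the 3 start regions of Adam19 and the region of Adam22. A match of 6 letters is a description of the sequence and not evidence of binding.

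Of the other pathway genes in this paragraph, 0 were 2-fold apart between the genotypes. Of all genes, 1.85% were so in Flk1+ and 1.34% in Flk1- cells. By the sort as deposited, Tll1 was 2-fold or more higher in both Flk1+ populations. Tspan33 was 2-fold or more lower in control Flk1+ cells and Mep1b in knockout Flk1+ cells. The shares of all genes apart by the sort were 3.79% in knockout and 2.7% in control cells. Of the 7 measured tetraspanins and rhomboid relatives above the floor that control Adam10 and Adam17, 0 were 2-fold apart between the genotypes in either fraction. The tetraspanin gene Tspan33 was at 4.63 and 3.68 in knockout and control Flk1+ cells, against 5.34 and 5.39 in knockout and control Flk1- cells, so it was lower in both Flk1+ populations. Its 4 probe sets above the floor did not agree, with control sort differences from -1.83 to -0.04. Reck, a membrane-anchored inhibitor of Mmp9 and Mmp14, was at 4.64 and 5.36 in knockout and control Flk1+ cells, against 4.66 and 4.99 in knockout and control Flk1- cells. Spock2, a testican gene listed with Reck and also above the floor, went the opposite way between the genotypes. It was at 4.87 and 4.21 in knockout and control Flk1+ cells, against 5.27 and 4.93 in knockout and control Flk1- cells. The 5 proprotein convertases above the floor, which activate ADAMs and membrane-type MMPs, had 0 members 2-fold apart in the 4 comparisons. The differences of Furin were within 0.24 in size. Pcsk5 was at least 1.49-fold lower in knockout than control Flk1+ cells, and at least 1.49-fold higher in control Flk1+ than control Flk1- cells. Pcsk7 was at least 1.28-fold higher in knockout Flk1+ than knockout Flk1- cells. The 4 ADAMTS-like genes above the floor also had 0 members 2-fold apart, with differences within 0.36 in size. Tll1, an astacin proteinase related to Bmp1, was at least 1.79-fold higher in knockout Flk1+ than knockout Flk1- cells and at least 2.70-fold higher in control Flk1+ than control Flk1- cells. Of the same list, Mep1b, a meprin, and Pcolce2, a procollagen enhancer, went the other way in the knockout sort, at least 1.16-fold and at least 1.63-fold lower in Flk1+ cells. Bmp1 itself had genotype differences of 0.13 and 0.08. Of the plasminogen system 5 genes were measured, and Plaur, the urokinase receptor, was the 1 above the floor, with genotype differences of 0.20 and 0.03.

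Among proteins shed by these enzymes, Cdh1, the epithelial cadherin cut by Adam10, was the 1 of 12 that was 2-fold apart between the genotypes in Flk1+ cells, 1.79 higher in the knockout, and 0 of 11 were so in Flk1- cells. By the sort, 1 of 11 was at least 2-fold higher in knockout Flk1+ cells, and in control Flk1+ cells 2 of 12 were higher and 2 lower. The 2 lower ones were Cdh1, at -1.71, and Sdc4, at -1.43, with the other Sdc4 probe set at -0.66. Cdh5, the endothelial cadherin that Adam10 also cuts, was 2.10 higher in knockout Flk1+ cells and at least 5.91-fold higher in control Flk1+ cells. Its other probe set above the floor had smaller sort differences as deposited, of 0.91 in knockout and 1.34 in control cells. L1cam, another substrate, was 0.80 higher in knockout and 1.19 higher in control Flk1+ cells. The Notch ligand gene Dll1 and the growth factor genes Hbegf and Tgfa had differences within 0.38 in size in all 4 comparisons. This holds for the probe sets used, since another probe set of Hbegf and of Tgfa reached 0.48 and 0.40 in the knockout sort. Notch1 had genotype differences of 0.02 in Flk1+ and 0.16 in Flk1- cells. Its sort differences were 0.47 in knockout and 0.61 in control cells, and 1.25 and 0.86 with its other probe set. The background shares given above for each comparison apply to these lists too.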

How the data were processed

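Expression was measured on 4 Affymetrix arrays, 1 each of knockout Flk1+, control Flk1+, knockout Flk1- and control Flk1- cells. The labels' protocols give 50 ng of total RNA as the input to cDNA amplification and biotin labelling. The deposited values are log2 expression values per probe set. RMA and limma were used per the submitters' processing notes, whose versions and roles are not given in the sources used here.

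The values were used as deposited, without control probe sets (45037 remained). Genes came from the platform annotation, and 0 of the 61 member symbols differed from the reference gene table. The members had 107 probe sets, and 29 had more than 1. Of 80 family genes in that table, 19 were not named on the array here. Log2 values were subtracted within each pair of arrays and counted at 2-fold or more, for genes with at least 1 of the 2 values above the floor. Folds involving a sub-floor value are given as lower bounds against the floor. The calling rule was run on simulated data with differences added only to genes well above the floor. Added differences near the floor were not checked.

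The value on every array is given for members 2-fold or more apart in a comparison, the TIMPs, Mmp2, Mmp9, Mmp14, Adam10, Adam17 and the 5 members with the highest mean. Other members given in full (Adam9, Adam28, Adamts1, Adamts5, Adamts9, Mmp23 and Mmp24) and several genes of the other lists, such as Reck and Furin, were chosen after their values were seen. The members and lists were chosen with earlier results of these data known. The alternatives were fold rules of 1.5 and 3, other floors, quantile normalization, cyclic loess (span 0.3, 3 rounds), median centring, averaged probe sets, omission of _s_at and _x_at probe sets and values set to the floor. Python 3.11.15, pandas 2.3.3, numpy 2.4.6, R 4.3.3 and limma 3.58.1 were used.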

Additional observations from a re-analysis of the deposited data

Results flagged for a closer look

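The knockout minus control difference had opposite signs in the Flk1+ and Flk1- fractions for 5 of 32 members (15.6%), with each difference larger than the SD of the receptor genes, against 13.8% of the 10955 genes above the floor. None of the 5 passed the wider gauge, the 95th percentile of the gap between probe sets, in both fractions. With 1 array a group the difference between the fractions was not tested. Mmp23 had a knockout minus control difference of -0.29 in Flk1+ and 0.38 in Flk1- cells, a difference of differences of -0.67, with both lower values below the floor. Adam9, a sheddase, was at -0.20 and 0.41, a difference of -0.61. Adamts15, a versican-cleaving proteinase, was at -0.32 and 0.23, a difference of -0.55. Adam11 was at 0.17 and -0.31, a difference of 0.49, and Adamts7 was at 0.18 and -0.23, a difference of 0.41.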

How the results depend on the processing

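No analysis paired by replicate was possible because each group has 1 array, and no replicate could be left out either. A fit that treats the 2 fractions as pairs would take the gap between fractions as its error and was not run. Of 80 recomputed counts and medians, 75 stayed the same by the size rules used, and 5 counts moved, all with the fold rule. A median counted as the same if it moved by less than the receptor gene SD of its comparison (0.13 to 0.17). Each median is smaller in size than that SD, so the label does not cover its sign. In Flk1+ cells the members' genotype median was -0.04 as deposited, and 0.02 after quantile normalization or cyclic loess. At 1.5-fold, the members apart numbered 4 for knockout minus control in Flk1+ cells and 2 in Flk1- cells, and 6 for Flk1+ minus Flk1- in knockout cells and 3 in control cells. At 3-fold the knockout sort count was 1. Mmp14 joined Adam12 and Mmp17 in the knockout sort, for a count of 3, after quantile normalization, cyclic loess or median centring. Adam12 was called in its 3 comparisons under every alternative run on its main probe set or on averaged probe sets, but its second probe set, with values below the floor raised to it, was at -0.55 in Flk1- cells. Of 585 values of named members, 19 moved by more than the receptor gene SD, and 0 of those called turned sign. The 19 belonged to Adam12, Adamts9, Timp2, Mmp14 and Mmp17. With averaged probe sets Adam12 was at -1.76 in Flk1- cells and Timp2 at 0.49 in the control sort. The uncalled Timp2 difference in Flk1- cells turned sign, to -0.43 without _s_at probe sets. With median centring the knockout sort median was 0.09 over all genes, against -0.08 as deposited, and 0.29 over members, against 0.13, with 24 higher and 8 lower. The members' medians for knockout minus control lay between -0.04 and 0.04 in Flk1+ and between -0.16 and 0.02 in Flk1- cells over the alternatives run.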
